A study of Mus musculus with 16 samples.

Results

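The H19-Kcnq1ot1 domain of distal mouse chromosome 7 was followed by reduced representation bisulfite sequencing (RRBS), in which the share of methylated reads is measured at single CpGs of CpG-rich fragments. All CpGs of a window of 950000 bases (mm9) from below H19 (chr7:149761434-149764048) to above Phlda2 (chr7:150687450-150688446) were taken, with the reads of both strands summed. They were grouped into the imprinting control regions (ICRs) of H19 and Kcnq1ot1, the promoters (2 kb either side of each annotated start) and the bodies of 7 genes, H19, Igf2, Ascl2, Kcnq1, Kcnq1ot1, Cdkn1c and Phlda2. The promoter window and the body of a gene overlap, as do the windows of the H19 promoter and the H19 ICR. The bodies of H19 and Phlda2 lie wholly inside their promoter windows. Promoter and body results of a gene are therefore not separate evidence. Of the 1320646 CpGs with at least 10 reads in any of the 16 libraries, 996 lay in this window, which is 11.6% of its 8605 reference CpGs. Of the 329078 CpGs covered in all 16 libraries, 239 lay there.

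The 16 libraries came from the E14 line of mouse embryonic stem cells (mESCs), of 129/Ola origin and kept in serum with LIF, with 2 replicates in each of 8 conditions. Unmodified young passage cells (YP-mESCs) were compared with old passage cells (OP-mESCs) and with OP-S33Y #1 and OP-S33Y #2, which overexpress β-catenin with the S33Y mutation, a form that escapes degradation. Each S33Y line is 1 clone made in YP-mESCs and then kept in long culture. The other 4 conditions were shCtrl and shβcat #1, YP-mESC-derived lines carrying a pLKO vector with a control shRNA or with an shRNA against β-catenin, each as mESCs and as embryoid bodies (EBs), aggregates that differentiate without LIF. The study took the EBs at day 8 of differentiation. The comparisons ask whether long culture, stabilized β-catenin, loss of β-catenin and differentiation go with other methylation in the domain. The study describes the replicates of YP-mESCs, OP-mESCs and the S33Y clones as biological. For the shRNA lines the sources used here do not say whether they were separate cultures, so that p-values there measure the spread between libraries, which may be technical. An exact permutation test of 2 against 2 libraries cannot go below p = 0.33.

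The domain holds a pair of neighboring imprinted clusters. The H19 ICR is methylated on the paternal allele, where it keeps the insulator protein CTCF from binding, so that the paternal allele expresses the growth factor gene Igf2 and the maternal allele the non-coding RNA H19. The Kcnq1ot1 ICR (also called KvDMR) lies in an intron of the potassium channel gene Kcnq1, holds the start of the non-coding RNA Kcnq1ot1 and is methylated on the maternal allele. The unmethylated paternal copy transcribes Kcnq1ot1, which silences neighbors in cis, among them Cdkn1c, an inhibitor of cyclin-dependent kinases, Phlda2, which restrains placental growth, and Ascl2, a transcription factor of the trophoblast. A cell with normal imprints is therefore near the middle of the scale at both ICRs. ZFP57 binds the methylated hexanucleotide TGCCGC and helps to keep ICR methylation. The reads carry no allele labels, and in a bulk library a change on 1 allele of all cells cannot be told apart from a change on both alleles of some cells.

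The stretches on which the main results rest are shown first, each 5′ to 3′ from the mm9 reference, in lower case with the CpGs of interest in capitals. The measured part of the Kcnq1ot1 ICR (chr7:150480736-150482810) was 1 stretch, chr7:150481280-150481523, 929 to 1172 bases downstream of the Kcnq1ot1 start at 150482452 and inside a Kcnq1 intron. On the minus strand, which is the strand of Kcnq1ot1, with its 17 covered CpGs in capitals, it reads as follows.
Kcnq1ot1 ICR stretch: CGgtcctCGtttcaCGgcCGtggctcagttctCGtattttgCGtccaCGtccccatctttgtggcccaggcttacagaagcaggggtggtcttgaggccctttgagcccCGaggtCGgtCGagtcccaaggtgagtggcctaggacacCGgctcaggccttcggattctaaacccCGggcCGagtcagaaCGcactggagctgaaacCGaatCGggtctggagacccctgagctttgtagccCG
The CpGs of the H19 ICR (chr7:149764673-149771930) were covered thinly. This stretch, chr7:149767047-149767292, minus strand, holds 4 CpGs in capitals.
H19 ICR stretch: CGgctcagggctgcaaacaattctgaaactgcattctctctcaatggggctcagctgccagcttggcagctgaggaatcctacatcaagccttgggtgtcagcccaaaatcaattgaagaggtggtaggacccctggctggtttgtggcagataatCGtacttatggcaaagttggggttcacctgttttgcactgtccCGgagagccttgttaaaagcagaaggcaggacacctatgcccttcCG
The stretch just upstream of H19, chr7:149764070-149764148, minus strand, lies within its promoter and shows all 5 CpGs in capitals.
H19 promoter stretch: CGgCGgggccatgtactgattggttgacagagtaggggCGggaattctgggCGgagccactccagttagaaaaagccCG
An exonic stretch of Kcnq1 (chr7:150378544-150378592, plus strand, overlapping a coding exon) and a pair of CpGs in a Kcnq1 intron (chr7:150475653-150475728, plus strand) held called CpGs in the comparisons of the lines in long culture.
Kcnq1 exon stretch: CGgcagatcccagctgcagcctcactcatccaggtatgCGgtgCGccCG
Kcnq1 intron pair: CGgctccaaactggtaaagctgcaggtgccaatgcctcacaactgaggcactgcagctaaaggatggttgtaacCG
Upstream of Phlda2, chr7:150690050-150690135, minus strand, is the stretch with the largest rise from mESCs to EBs in both shRNA lines among the stretches of the 7 genes that held a called CpG.
Stretch 5′ of Phlda2: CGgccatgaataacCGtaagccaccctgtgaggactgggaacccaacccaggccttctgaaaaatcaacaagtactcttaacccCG

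The libraries held between 18919219 and 40519010 reads summed over CpGs, with 413282 to 1152971 CpGs of at least 10 reads and a median of 22 to 42 reads per CpG. In the domain, OP-mESC replicate 2 covered the fewest CpGs, 266, and EB shβcat #1 replicate 1 the most, 866. Methylated reads on the mitochondrial genome, a measure of unconverted cytosines, were 0.242% to 0.449%. Every result with OP-mESCs rests on few CpGs, and values without replicate 2 are given where they end a call. Covered CpGs fell into 67 stretches of at least 3 neighboring CpGs, 41 of them in ICRs, promoters or bodies of the 7 genes. Of the 26 differences of promoters and bodies that passed the test below, 17 did not pass when some 1 library was left out; these are named beside each result.

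At the Kcnq1ot1 ICR the lines in long culture stood at opposite ends of the scale. Levels are means over CpGs of the percent of methylated reads, first over the 3 CpGs covered in all 16 libraries (66 to 237 reads in a library). The YP-mESC libraries were at 46.6% and 53.5%. The OP-mESC libraries were at 0% and 1.42%, with no overlap with YP-mESCs. The OP-S33Y #1 libraries were at 54.5% and 38.5%, on both sides of YP-mESCs.
The OP-S33Y #2 libraries were at 97.9% and 91.3%, above all other libraries. The shRNA lines lay near YP-mESCs, with mESC shCtrl at 51.4% and 37.7%, mESC shβcat #1 at 48.2% and 49.6%, EB shCtrl at 33.2% and 45.1% and EB shβcat #1 at 48.6% and 46.4%. In order of their means the conditions ran from OP-mESCs (0.709% ± 1.00, SD, n = 2) through EB shCtrl (39.2% ± 8.4), mESC shCtrl (44.5% ± 9.72), OP-S33Y #1 (46.5% ± 11.3), EB shβcat #1 (47.5% ± 1.57), mESC shβcat #1 (48.9% ± 1.01) and YP-mESCs (50.04% ± 4.91) to OP-S33Y #2 (94.6% ± 4.65). Neighbors in this order among the 6 conditions in the middle differed by less than the larger of their SDs, and both outer conditions stood apart from them.

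**Figure D1:**
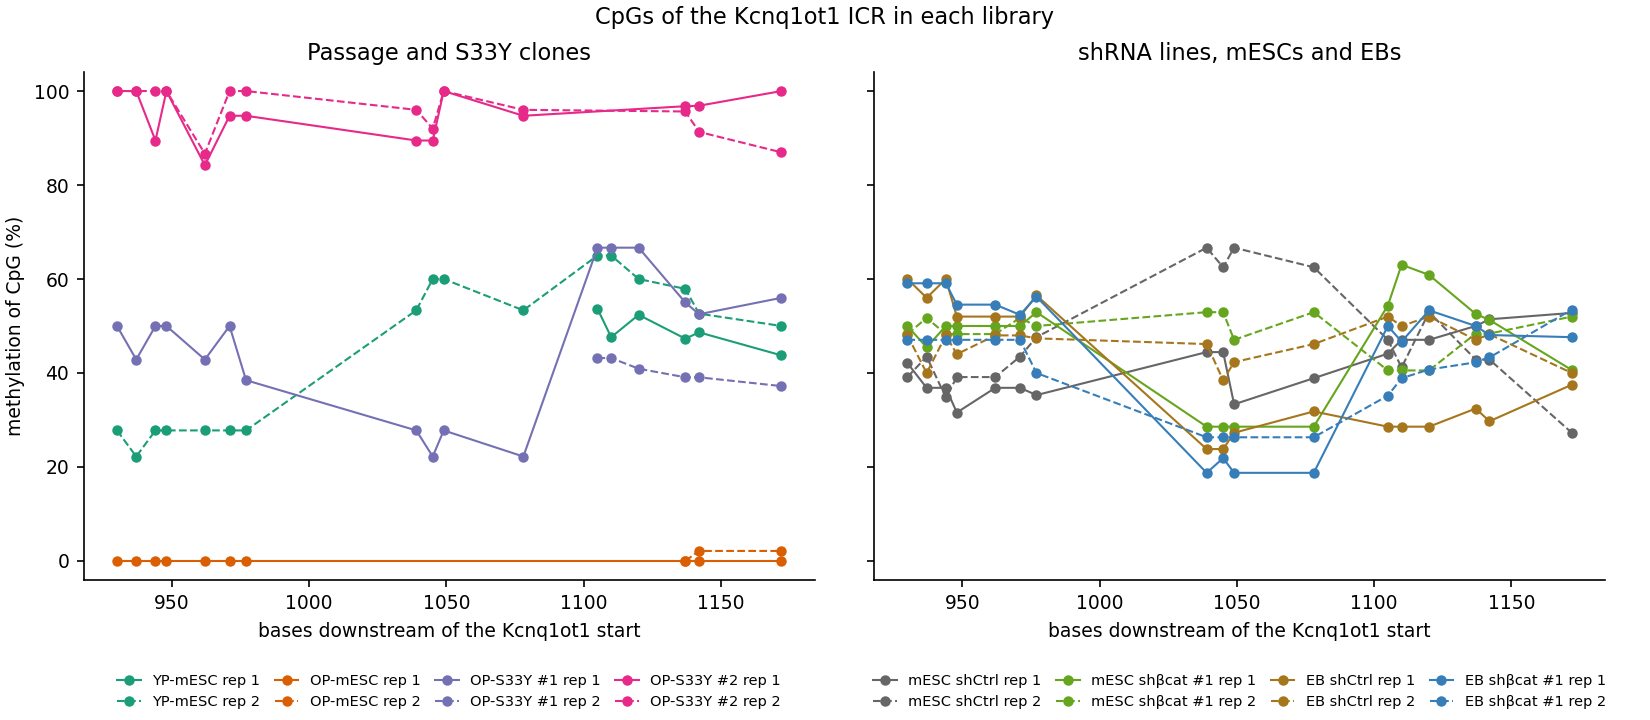
Methylation (%) of each covered CpG of the Kcnq1ot1 ICR against its distance in bases from the Kcnq1ot1 start, with 1 line per library (solid, replicate 1; dashed, replicate 2). At every CpG measured, OP-mESCs stay at or below 2.13% and OP-S33Y #2 at or above 84.2%, whereas all other libraries lie between 18.8% and 66.7%.

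The methylated and unmethylated reads were tested with a binomial model whose overdispersion was moderated over all regions of a comparison with limma, and p-values were adjusted over all measured ICRs. OP-mESCs were lower than YP-mESCs by 49.3 percentage points (adjusted p = 6.9e-07, 3 CpGs), in a comparison in which 54.5% of the measured ICRs were called lower (6 of 11) and 1 of them differed by more. OP-S33Y #2 was 44.6 points higher than YP-mESCs (adjusted p = 6e-06), where 43.8% of 16 ICRs were called higher. Against OP-mESCs, OP-S33Y #1 was 45.8 points higher (adjusted p = 1.4e-05) and OP-S33Y #2 93.9 points higher (adjusted p = 2.1e-07), both with 54.5% of 11 ICRs called higher. The last difference was the largest of the 11 ICRs. OP-S33Y #1 and YP-mESCs, over 6 shared CpGs, differed by -3.14 points, less than the spread between replicates (adjusted p = 0.40). These 4 calls held without any 1 of their libraries, although the Kcnq1ot1 promoter, on the same CpGs but adjusted over all promoters, was not called in OP-S33Y #1 against OP-mESCs without OP-mESC replicate 2 (adjusted p = 0.076). The comparisons share YP-mESC or OP-mESC libraries and are therefore not independent.

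The 3 CpGs did not stand apart from the rest of the stretch. Over all its covered CpGs (3 to 17 in a library), YP-mESCs were at 48.9% and 45.1%, OP-mESCs at 0% and 1.42%, OP-S33Y #1 at 46.3% and 40.4% and OP-S33Y #2 at 95.04% and 96.04%. The 10 CpGs covered in OP-mESC replicate 1 were all at 0%, with 17 to 22 reads each. In the OP-S33Y #2 libraries the 14 covered CpGs lay between 84.2% and 100%. In the 8 libraries of the shRNA lines, single CpGs lay between 18.8% and 66.7%, so that no CpG there reached the range of OP-mESCs or OP-S33Y #2. Reads on the 3 shared CpGs, relative to the median CpG of the same library, were 0.957 and 1.31 times in OP-mESCs, 1.03 and 0.958 times in OP-S33Y #2 and 1.17 to 2.77 times in the other libraries. The bearing of copy number on the levels was not tested. The promoter of Kcnq1ot1, taken as 2 kb either side of its start, held the same covered CpGs as the ICR and gives no separate evidence.

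Outside the domain OP-S33Y #2 had 4 of 17 measured ICRs over 80% and 2 under 20%. The unmodified and the other S33Y line had fewer over 80%, with 1 of 16 in YP-mESCs, 1 of 11 in OP-mESCs and 2 of 14 in OP-S33Y #1. Both shRNA lines, as mESCs and as EBs, also had 4 of 17 over 80%, with 0 under 20%. None of the 3 other measured ICRs of chromosome 7 was over 80% in OP-S33Y #2. In OP-mESCs 4 of 11 other measured ICRs were under 20%, 1 of them on chromosome 7.

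Within the Kcnq1 body a few single CpGs moved as well. A CpG was called at an adjusted p under 0.05 over all CpGs of the genome and a difference of more than 25 points. In OP-mESCs 8 of 257 tested CpGs of the domain were called lower than in YP-mESCs and 0 higher (3.11% lower, against 2.36% of all CpGs), all of them in Kcnq1 or its ICR. Against OP-mESCs, 8 of 263 were called higher in OP-S33Y #1 (2.29% of all CpGs) and 7 of 265 in OP-S33Y #2 (0.594% of all CpGs), again all in Kcnq1. The 3 shared CpGs of the ICR reported above are counted in each of these sets. The shares of the domain are therefore not separate from the ICR result. Without OP-mESC replicate 2 the counts were 5, 5 and 14, without YP-mESC replicate 1 the first was 4, and without OP-S33Y #1 replicate 2 the second was 5.

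The intron pair lies at -5083 and -5009 bases from the ICR border that faces H19. At its first CpG (150475653) YP-mESCs were at 24.1% and 36.4%, OP-mESCs at 0% and 3.23%, OP-S33Y #1 at 23.1% and 30.4%, and OP-S33Y #2 at 45.5% and 51.9%. At its other CpG (150475727) OP-mESCs were again lowest and OP-S33Y #2 highest, with 55.2% and 46.4% in YP-mESCs, 15.4% and 15.2% in OP-mESCs, and OP-S33Y #1 at 63.6% and 43.1%, OP-S33Y #2 at 84.6% and 86.4%. Both CpGs were called lower in OP-mESCs than in YP-mESCs (adjusted p = 0.0036 and 0.0037), and the second was called higher in OP-S33Y #2 than in YP-mESCs (adjusted p = 0.030). The pair was chosen after its values were seen.
Another intronic CpG of Kcnq1, 150451895, was at 70% and 78.6% in YP-mESCs and at 38.7% and 25.6% in OP-mESCs (-42.1 points, adjusted p = 0.0020). It was at 66.7% and 81.0% in OP-S33Y #1 and at 80% and 90.9% in OP-S33Y #2, 41.6 and 53.3 points above OP-mESCs (adjusted p = 0.00028 and 9.2e-05). Of these 4 lines OP-mESCs alone stood apart at this CpG. Its neighbor at 150451955 was called in OP-S33Y #2 against OP-mESCs alone (49.5 points, adjusted p = 0.0015).

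The exonic stretch of Kcnq1, farther from the ICR, did not follow this order. Its 4 CpGs averaged 89.2% and 91.4% in YP-mESCs, and 66.3% and 65.0% in OP-mESCs. The OP-S33Y #1 libraries were at 91.2% and 93.3%, those of OP-S33Y #2 at 70.2% and 63.4%. OP-S33Y #2 thus lay with OP-mESCs here, and OP-S33Y #1 with YP-mESCs. The differences from YP-mESCs were -24.6 points in OP-mESCs (adjusted p = 0.0015 for its 1 kb tile over all tiles, 16% of which were called lower) and -23.5 points in OP-S33Y #2 (adjusted p = 0.0046; 4.6% of tiles called lower), against 1.97 points in OP-S33Y #1 (adjusted p = 0.61). From OP-mESCs, OP-S33Y #1 differed by 26.6 points (adjusted p = 0.0018; 19.7% of tiles called higher) and OP-S33Y #2 by 1.10 points (adjusted p = 0.90). In the shRNA lines the stretch was between 81.7% and 98.4%.

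Over the whole Kcnq1 body, 50 CpGs covered in YP-mESCs and OP-mESCs averaged 59.5% and 61.4% in YP-mESCs and 47.7% and 50.9% in OP-mESCs. In each comparison of this body the CpGs include the 3 shared CpGs of the ICR, so that it is not separate evidence. The groups did not overlap, but the difference of -11.1 points did not pass the test (adjusted p = 0.11; 20.4% of all gene bodies were called lower). With a shared overdispersion this difference was called (adjusted p = 0.012). Against OP-mESCs the body was 13.3 points higher in OP-S33Y #1 (adjusted p = 0.043; 23.3% of bodies called higher) and 14.1 points higher in OP-S33Y #2 (adjusted p = 0.034; 9.63% of bodies). The first did not pass without any 1 of its 4 libraries (adjusted p = 0.099 to 0.15). The second did not pass without OP-S33Y #2 replicate 1 (adjusted p = 0.25) or replicate 2 (adjusted p = 0.097).

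At H19 levels were high at the promoter and body and at most covered CpGs of the ICR. Over the 5 promoter CpGs covered in all 16 libraries, YP-mESCs were at 83.2% and 88.2%, OP-mESCs at 85.8% and 84.4%, OP-S33Y #1 at 88.6% and 90.0%, and OP-S33Y #2 at 89.9% and 91.1%. None of the 5 comparisons among these lines was called at the H19 promoter, and the differences were -0.648 to 5.44 points (adjusted p = 0.24 to 0.98). The shRNA lines were at 80.4% to 92.8%. The lowest value belonged to EB shβcat #1 replicate 2 and the highest to mESC shCtrl replicate 1. All 16 libraries thus lay well above the middle of the scale at this promoter.

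The H19 ICR itself had 105 reference CpGs, of which at most 6 were covered in a library. OP-mESCs and OP-S33Y #2 had none, so that no value of these lines was obtained. Among libraries with at least 2 covered CpGs, YP-mESC replicate 1 was at 83.8% and OP-S33Y #1 replicate 2 at 90.6%. The shRNA lines ranged from 73.1% in mESC shβcat #1 replicate 1 to 96.2% in EB shCtrl replicate 1, over different CpGs. On the 2 CpGs that the shRNA lines shared, levels were 87.2% to 98.3%, and none of the 4 comparisons of these lines was called (adjusted p = 0.47 to 1.00). Not all ICR CpGs were high. The CpG at 149767291, covered by 10 to 17 reads in 5 libraries and not shared by any comparison, was at 17.6% in mESC shCtrl replicate 2 and at 20% and 57.1% in mESC shβcat #1, but at 84.6% in EB shCtrl replicate 1 and 88.2% in EB shβcat #1 replicate 1. The H19 body, measured in 14 libraries over 2 to 4 CpGs, was at 83.3% to 96.7%.

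Cdkn1c had low methylation with a small difference between YP-mESCs and the 3 lines in long culture. Its promoter window spans most of this short gene, and the promoter and body held largely the same CpGs. Over its 32 promoter CpGs found in every library, YP-mESCs were at 4.19% and 3.70%, OP-mESCs at 0.836% and 0.748%, OP-S33Y #1 at 1.04% and 0.856%, and OP-S33Y #2 at 0.950% and 0.995%. YP-mESCs lay above the other 6 libraries. The difference was -3.15 points in OP-mESCs (adjusted p = 0.015; 10.1% of promoters called lower), -4.06 points in OP-S33Y #1 over 60 CpGs (adjusted p = 0.027; 0.527% of promoters) and -3.60 points in OP-S33Y #2 over 52 CpGs (adjusted p = 0.015; 3.05% of promoters). The S33Y clones #1 and #2 differed from OP-mESCs by 0.16 and 0.18 points (adjusted p = 0.998 and 0.973). In the 3 comparisons with YP-mESCs, Cdkn1c was, beside Kcnq1ot1, the only member promoter of 7 that was called. Its body was the only member body of 5 that was called. Of all bodies, 20.4% were called lower in OP-mESCs, 0.72% in clone #1 and 4.23% in clone #2. For OP-mESCs the share of member bodies is thus near that of all bodies. The 3 calls share the YP-mESC libraries.
With 1 library left out, the promoter difference stayed at -3.40 to -2.91 points in OP-mESCs. It stayed at -4.36 to -3.75 points in OP-S33Y #1 and at -4.14 to -3.30 points in OP-S33Y #2. The calls themselves were lost without some single libraries. That of OP-mESCs did not pass without OP-mESC replicate 2 (adjusted p = 0.24), YP-mESC replicate 1 (0.17) or YP-mESC replicate 2 (0.081). That of OP-S33Y #1 did not pass without its replicate 2 (adjusted p = 0.15), YP-mESC replicate 1 (0.29) or YP-mESC replicate 2 (0.20). That of OP-S33Y #2 did not pass without its replicate 1 (adjusted p = 0.28) or replicate 2 (0.092). The body calls were lost in the same 3 comparisons, without the same libraries. The shCtrl and shβcat #1 mESCs, at 3.21% to 3.43%, lay near YP-mESCs.

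**Figure D2:**
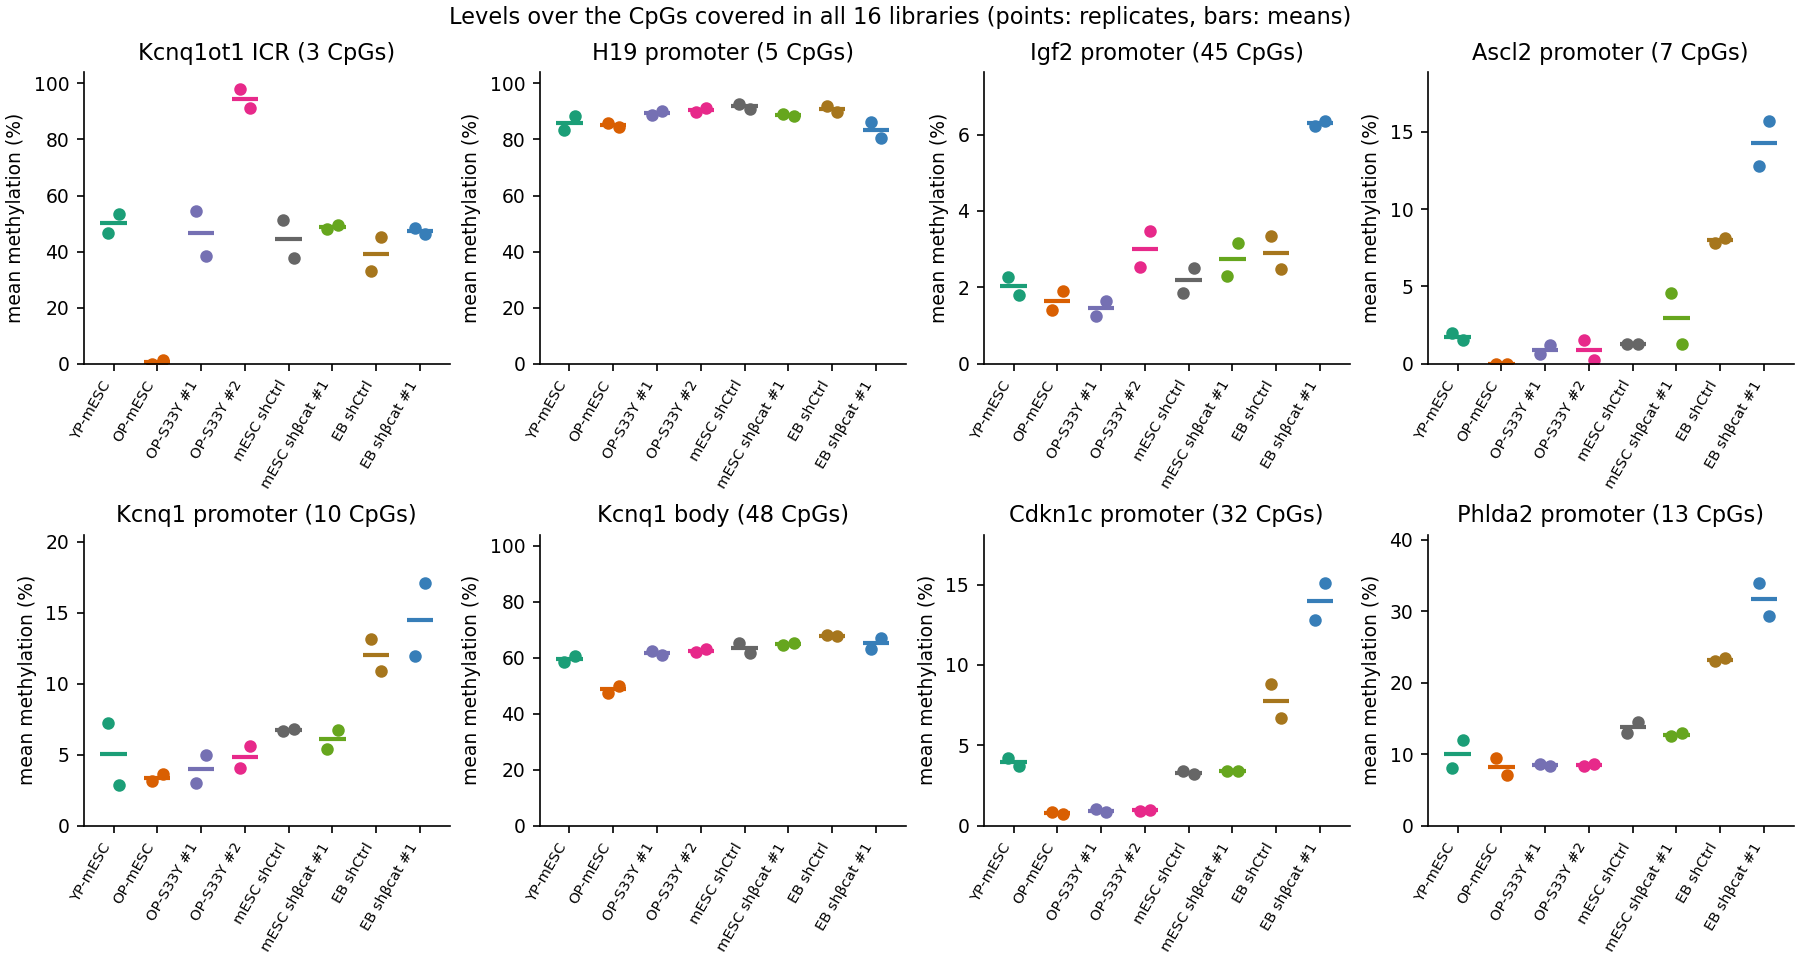
Mean methylation (%) of the Kcnq1ot1 ICR, the Kcnq1 body and 6 promoters over those CpGs that every library covered, with 1 point per library and a bar at the mean of the 2 replicates; the vertical scales differ between panels and start at 0. The ICR sets OP-mESCs and OP-S33Y #2 apart, the H19 promoter stays between 80.4% and 92.8%, and the promoters of Ascl2, Kcnq1, Cdkn1c and Phlda2 are highest in EBs.

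The other promoters differed little between YP-mESCs and the lines in long culture. The Igf2 promoters were between 1.25% and 3.47% over 45 shared CpGs in these 8 libraries, the Ascl2 promoter between 0% and 1.95% over 7, the Kcnq1 promoter between 2.90% and 7.22% over 10 and the Phlda2 promoter between 7.16% and 11.99% over 13. None of these promoters, and of the bodies of Igf2, Ascl2 and Phlda2, was called at the main settings in the comparisons among these 4 lines (adjusted p = 0.051 to 0.996). The 0.051 was that of the Igf2 body in OP-S33Y #2 against OP-mESCs, with a difference of 2.02 points. It was called without OP-mESC replicate 1 (adjusted p = 0.034) or replicate 2 (0.022), at 20 reads per CpG (0.043), with at least 5 CpGs (0.046), with a coverage cap (0.049), with a shared overdispersion (0.0022) and with the replicate number as a block (0.030). Without OP-mESC replicate 1 the Phlda2 promoter was called lower in OP-mESCs than in YP-mESCs (-2.86 points, adjusted p = 0.047) and higher in OP-S33Y #1 than in OP-mESCs (1.38 points, adjusted p = 0.017). The Ascl2 promoter was called lower in OP-mESCs than in YP-mESCs at 20 reads per CpG (-2.09 points, adjusted p = 0.036) and with a shared overdispersion (0.047). With a shared overdispersion the Igf2 promoter was called higher in OP-S33Y #2 than in OP-mESCs (1.52 points, adjusted p = 0.046). In OP-S33Y #1 against YP-mESCs 0 of 467 CpGs of the domain were called in either direction (44 with an unadjusted p under 0.05, and 0 by Fisher's exact test), where 0.142% of all CpGs were called lower and 0.154% higher. In OP-S33Y #2 against YP-mESCs 4 of 490 were called lower (0.716% of all CpGs) and 4 higher (0.116% of all CpGs), the latter being the 3 shared CpGs of the ICR and the second CpG of the intron pair. The lower ones were 2 in the exonic stretch of Kcnq1 and intronic CpGs of Tspan32 (150198382, 13.8% and 5.26% against 45.5% and 50%) and Cd81 (150242001, 13.95% and 4.35% against 41.2% and 40.5%). Without OP-S33Y #2 replicate 1 or replicate 2 these 8 calls became 4, and without YP-mESC replicate 2 they became 3.

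Silencing of β-catenin went with no called difference at the 7 genes in mESCs. In EBs none was called by the moderated test at the main settings, but some were called under the alternatives given below. In mESCs, shβcat #1 and shCtrl differed by -0.344 to 3.25 points over 15 ICRs, promoters and bodies, with 0 called by the moderated test or with a shared overdispersion and 0 at an unadjusted p under 0.05 (0.3% of promoters called higher). At the Kcnq1ot1 ICR, 17 CpGs were at 46.2% and 48.4% in shβcat #1 and at 41.8% and 47.0% in shCtrl (difference 2.91 points, adjusted p = 0.71). Of 687 CpGs of the domain 1 was called lower (0.0253% of all CpGs), an intergenic CpG at 150624252 on the Kcnq1 side of Cdkn1c, with 64.7% and 50% in shCtrl and 0% and 20% in shβcat #1. It was not called without mESC shβcat #1 replicate 1 or mESC shCtrl replicate 1.

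In EBs the same ICR was at 45.2% and 40.1% in shβcat #1 and at 40.04% and 46.2% in shCtrl (difference -0.472 points, adjusted p = 0.82). The Cdkn1c promoter was at 16.4% and 17.9% in shβcat #1 and at 8.71% and 10.8% in shCtrl, and the Phlda2 body at 24.7% and 25.4% against 15.2% and 15.96%. The groups did not overlap at either, with differences of 7.38 and 9.45 points that did not pass the test (adjusted p = 0.074 and 0.14). None of the 15 member regions was called by the moderated test (0.666% of promoters called higher), 6 had an unadjusted p under 0.05, and 4 were called with a shared overdispersion. With the replicate number as a block, several were called. Among them the Cdkn1c promoter (adjusted p = 1.8e-09) and the Phlda2 body (0.0024) were higher, and the H19 promoter was lower (-5.91 points, adjusted p = 0.032). The Cdkn1c promoter was called without EB shβcat #1 replicate 1 (7.54 points, adjusted p = 0.0061), at 20 reads per CpG (0.035) and with a shared overdispersion (5.2e-06). The Phlda2 promoter, 7.31 points higher over all 4 libraries, was called without EB shβcat #1 replicate 2 (7.48 points, adjusted p = 0.027) and at 20 reads per CpG (0.049). Of 630 CpGs 0 were called (0.0542% of all CpGs called higher; 88 in the domain with an unadjusted p under 0.05, 0 by Fisher's exact test). Without EB shβcat #1 replicate 2 the count was 1.

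Whether silencing acted differently in EBs and in mESCs was tested as an interaction over the 8 libraries. The shRNA difference at the Phlda2 body was 9.45 points in EBs and -1.39 points in mESCs, and at the Cdkn1c body 6.78 and -0.0485 points. Neither interaction passed the test (adjusted p = 0.24 and 0.28). None of 15 member regions and none of 74 1 kb tiles of the domain passed, although 6 member regions and 20 tiles had an unadjusted p under 0.05 (lowest adjusted p = 0.11).

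More CpGs of the domain were called in EBs against mESCs than in any comparison between mESC lines. Comparisons with OP-mESCs tested fewer CpGs. The mean difference over the tested CpGs was 4.53 points in shCtrl and 5.91 points in shβcat #1. In OP-mESCs minus YP-mESCs it was -4.53 points over 257 CpGs. In EBs against mESCs of the same line, 30 of 642 CpGs were called higher in shCtrl (4.67%, against 6.29% of all CpGs) and 62 of 654 in shβcat #1 (9.48%, against 6.22% of all CpGs), with 1 lower in each (0.0731% and 0.344% of all CpGs). These CpGs, 11 and 19 of which lay in ICRs, promoters or bodies of the 7 genes, make up a share near that of the genome in shCtrl. Whether the counts of the 2 lines differ was not tested beyond the interaction above. Without mESC shCtrl replicate 1, 20 CpGs were called in shCtrl.

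Promoters of the Kcnq1ot1 side rose from low levels. The Cdkn1c promoter was at 11.06% and 11.04% in EB shCtrl and at 7.39% and 7.26% in mESC shCtrl (3.72 points, adjusted p = 0.0092), and at 16.8% and 18.5% in EB shβcat #1 against 7.08% and 6.87% in mESC shβcat #1 (10.7 points, adjusted p = 4.5e-05). In both lines all EB values lay above all mESC values. The Ascl2 promoter rose by 4.23 points in shCtrl, from 4.27% and 3.77% to 8.53% and 7.96% (adjusted p = 0.0060). In shβcat #1 it rose by 6.19 points, from 3.48% and 3.85% to 10.2% and 9.55% (adjusted p = 0.00019). At its CpG 150155282, just upstream of the start, mESC and long-culture libraries were at 0% to 1.82% and EB libraries at 22.4% to 33.3%.
The Kcnq1 promoter rose by 5.52 points in shCtrl, from 6.53% and 5.22% to 11.2% and 11.6% (adjusted p = 0.026), and by 10.04 points in shβcat #1, from 12.1% and 10.6% to 21.5% and 21.2%, over more CpGs (adjusted p = 0.0022). The Phlda2 promoter was 9.07 points higher in EB shCtrl, with 21.4% and 22.7% against 13.0% and 13.0% (adjusted p = 0.064, not called; 0.013 at 20 reads per CpG and 0.025 with 1 kb either side of the start). In shβcat #1 it rose by 16.9 points, with 29.5% and 29.2% against 12.2% and 12.8% (adjusted p = 0.00040). In all, 3 of 7 member promoters were called higher in shCtrl (23.3% of all promoters) and 4 of 7 in shβcat #1 (28.8% of all promoters).

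Among the bodies, 2 of 6 were called higher in shCtrl (24.2% of all bodies), those of Cdkn1c (4.46 points, adjusted p = 0.0076) and Phlda2 (7.29 points, adjusted p = 0.011). In shβcat #1 it was 3 of 6 (25.1% of all bodies), those of Cdkn1c (10.9 points, adjusted p = 4.8e-05), Phlda2 (18.1 points, adjusted p = 4.7e-05) and Ascl2 (4.67 points, adjusted p = 0.0080). The Phlda2 body and most of the bodies of Ascl2 and Cdkn1c lie inside their promoter windows, so these body calls largely reuse promoter CpGs. The Phlda2 body held 11 CpGs, at 24.7% and 25.4% in EB shβcat #1 against 7.93% and 5.91% in mESC shβcat #1. Igf2 was not called in either line, with promoter differences of 1.84 and 2.70 points and body differences of 2.49 and 4.07 points (adjusted p = 0.080 to 0.26). Without EB shβcat #1 replicate 2 both were called in shβcat #1, the promoter at 4.32 points (adjusted p = 0.00057) and the body at 5.45 points (adjusted p = 7.2e-06), and at 20 reads per CpG as well (adjusted p = 0.021 and 0.00072). Neither ICR was called: the Kcnq1ot1 ICR differed by -1.26 points in shCtrl and by -4.65 points in shβcat #1 (adjusted p = 0.83 and 0.14), and it was called in shβcat #1 without EB shβcat #1 replicate 1 (-7.21 points, adjusted p = 0.048).

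Several of these calls were lost when 1 library was left out. In shCtrl the Cdkn1c promoter did not pass without EB shCtrl replicate 2 (adjusted p = 0.051), mESC shCtrl replicate 1 (0.058) or mESC shCtrl replicate 2 (0.092), and the Cdkn1c body without mESC shCtrl replicate 1 (0.14). The Kcnq1 promoter did not pass without EB shCtrl replicate 2 (adjusted p = 0.13) or mESC shCtrl replicate 2 (0.28), or at 20 reads per CpG (0.22). The Phlda2 body did not pass without EB shCtrl replicate 2 (adjusted p = 0.099) or mESC shCtrl replicate 1 (0.14). In shβcat #1 the Ascl2 body did not pass without mESC shβcat #1 replicate 1 (adjusted p = 0.059) or replicate 2 (0.071), and the Kcnq1 promoter without mESC shβcat #1 replicate 2 (0.052). The calls of the Ascl2 promoter in both lines, and those of the Cdkn1c and Phlda2 promoters and bodies in shβcat #1, held without any 1 library.

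The H19 promoter was the only member promoter or body called lower in EBs. In shβcat #1 it was at 87.2% and 82.5% in EBs and at 90.1% and 91.6% in mESCs, a fall by 5.97 points (adjusted p = 0.027; 5.17% of promoters called lower). It did not pass without mESC shβcat #1 replicate 1 (adjusted p = 0.092) or replicate 2 (0.22). In shCtrl the difference was -0.929 points (adjusted p = 0.70). The H19 body in shβcat #1 was called lower without mESC shβcat #1 replicate 1 (-11.4 points over 2 CpGs, adjusted p = 0.046). The Kcnq1 body was also lower in EB shβcat #1, at 68.8% and 69.2% over 129 CpGs against 72.1% and 72.7% in mESC shβcat #1, without overlap (-3.43 points). It was not called (adjusted p = 0.060), but it was called without EB shβcat #1 replicate 1 (adjusted p = 0.0030) or replicate 2 (0.023) and with a shared overdispersion (0.00066). In shCtrl this body differed by 1.35 points (adjusted p = 0.77).

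**Figure D3:**
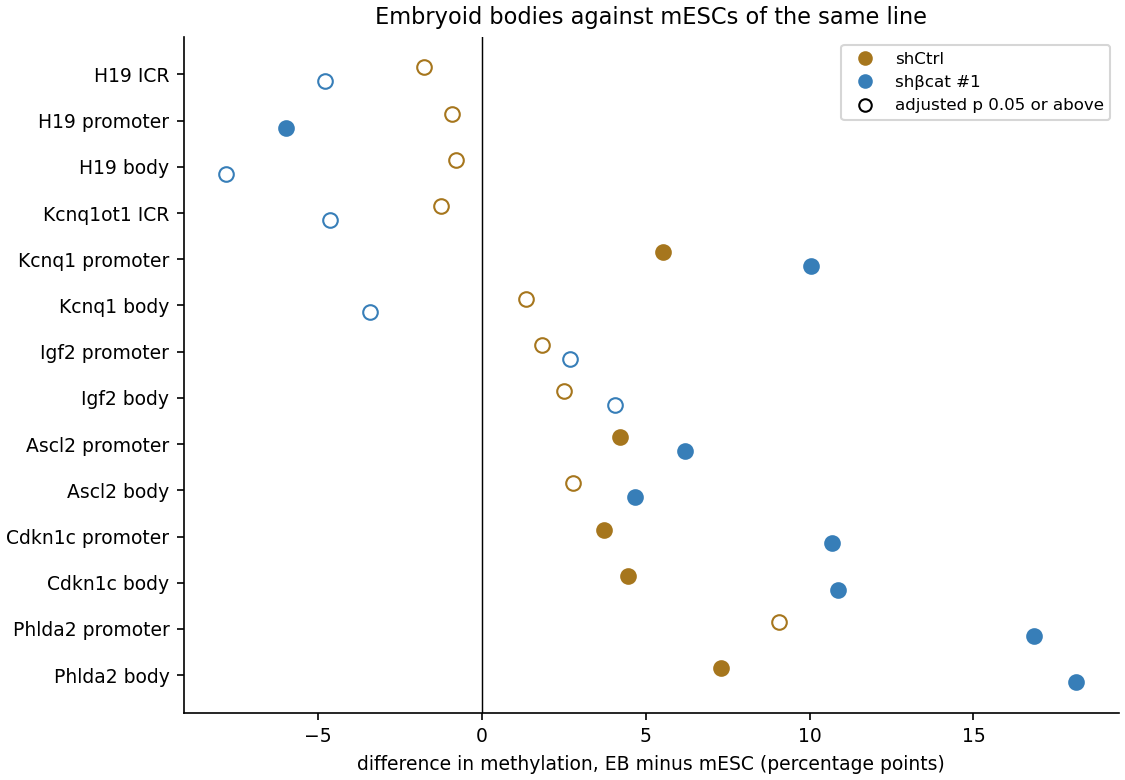
Difference in methylation, EB minus mESC (percentage points), of 2 ICRs and of the promoters and bodies of 6 genes, for shCtrl (brown) and shβcat #1 (blue); filled points passed the test at an adjusted p under 0.05. The filled points lie to the right of 0 at Kcnq1, Ascl2, Cdkn1c and Phlda2, and the only filled point to its left is the H19 promoter in shβcat #1.

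The stretches with the largest differences show where within the genes the CpGs moved. The stretch 5′ of Phlda2 was at 47.8% and 51.4% in mESC shCtrl and at 77.8% and 81.7% in EB shCtrl (30.1 points, adjusted p = 0.00065 for its 1 kb tile, where 23% of all tiles were called higher). In shβcat #1 it was at 48.2% and 56.4% in mESCs and at 73.0% and 75.2% in EBs (21.8 points, adjusted p = 0.0066; 21.8% of tiles called higher). It was thus near the middle of the scale in these mESCs and rose in both lines. A stretch of 16 shared CpGs over Phlda2 itself (chr7:150687641-150688775) was at 5.45% and 4.62% in mESC shβcat #1 and at 21.4% and 20.6% in EB shβcat #1. In shCtrl that stretch went from 6.46% and 5.76% to 10.9% and 11.6% and held no called CpG.

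At Igf2 a stretch shared with an exon of its antisense gene Igf2as (chr7:149851087-149851672) was at 56.5% and 57.1% in mESC shCtrl and at 83.0% and 82.2% in EB shCtrl (25.8 points). Its 1 kb tile had an adjusted p of 0.0053, where 23% of all tiles were called higher. In shβcat #1 the stretch differed by 6.26 points over 2 CpGs (adjusted p = 0.35 for the tile). An intronic stretch (chr7:149849749-149849816) was at 3.85% and 2.27% in mESC shβcat #1 and at 15.4% and 23.3% in EB shβcat #1 (16.3 points). Its tile had an adjusted p of 0.0014, where 21.8% of all tiles were called higher. The summed Igf2 promoters, which hold over 80 CpGs mostly near 0, did not show these stretches. In a coding exon of Cdkn1c a pair of CpGs, in capitals in the following stretch (chr7:150646027-150646071, minus strand), was called higher in EB shβcat #1.
Cdkn1c exon pair: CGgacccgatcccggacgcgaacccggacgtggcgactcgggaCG
Its CpG at 150646027 was at 5.26% and 4.55% in mESC shβcat #1 and at 31.1% and 30.8% in EB shβcat #1. The CpG at 150646070 was at 0% and 6.67% against 45.2% and 54.4%, but its shCtrl replicates lay far apart, at 45.8% and 0% in mESCs and at 0% and 40.7% in EBs. In the Kcnq1 body, CpGs at 150310022 and 150310105 in an intron were at 2.94% and 3.33%, and at 3.23% and 3.23%, in mESC shCtrl. In EB shCtrl they were at 53.8% and 44.4%, and at 59.3% and 46.3%. The CpG 150475653 of the intron pair rose from 21.7% and 16% to 54.5% and 65.1% in shCtrl and from 23.7% and 20.9% to 54.2% and 58.5% in shβcat #1, whereas the ICR beside it was not called. Kcnq1 also held the only called CpG that was lower in each line, at 150566639 in shCtrl and at 150575167 in shβcat #1. The stretch of 12 CpGs around the former was at 91.8% and 91.7% in mESC shCtrl and at 89.2% and 81.0% in EB shCtrl (-6.72 points, adjusted p = 0.060 for its tile).

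**Figure D4:**
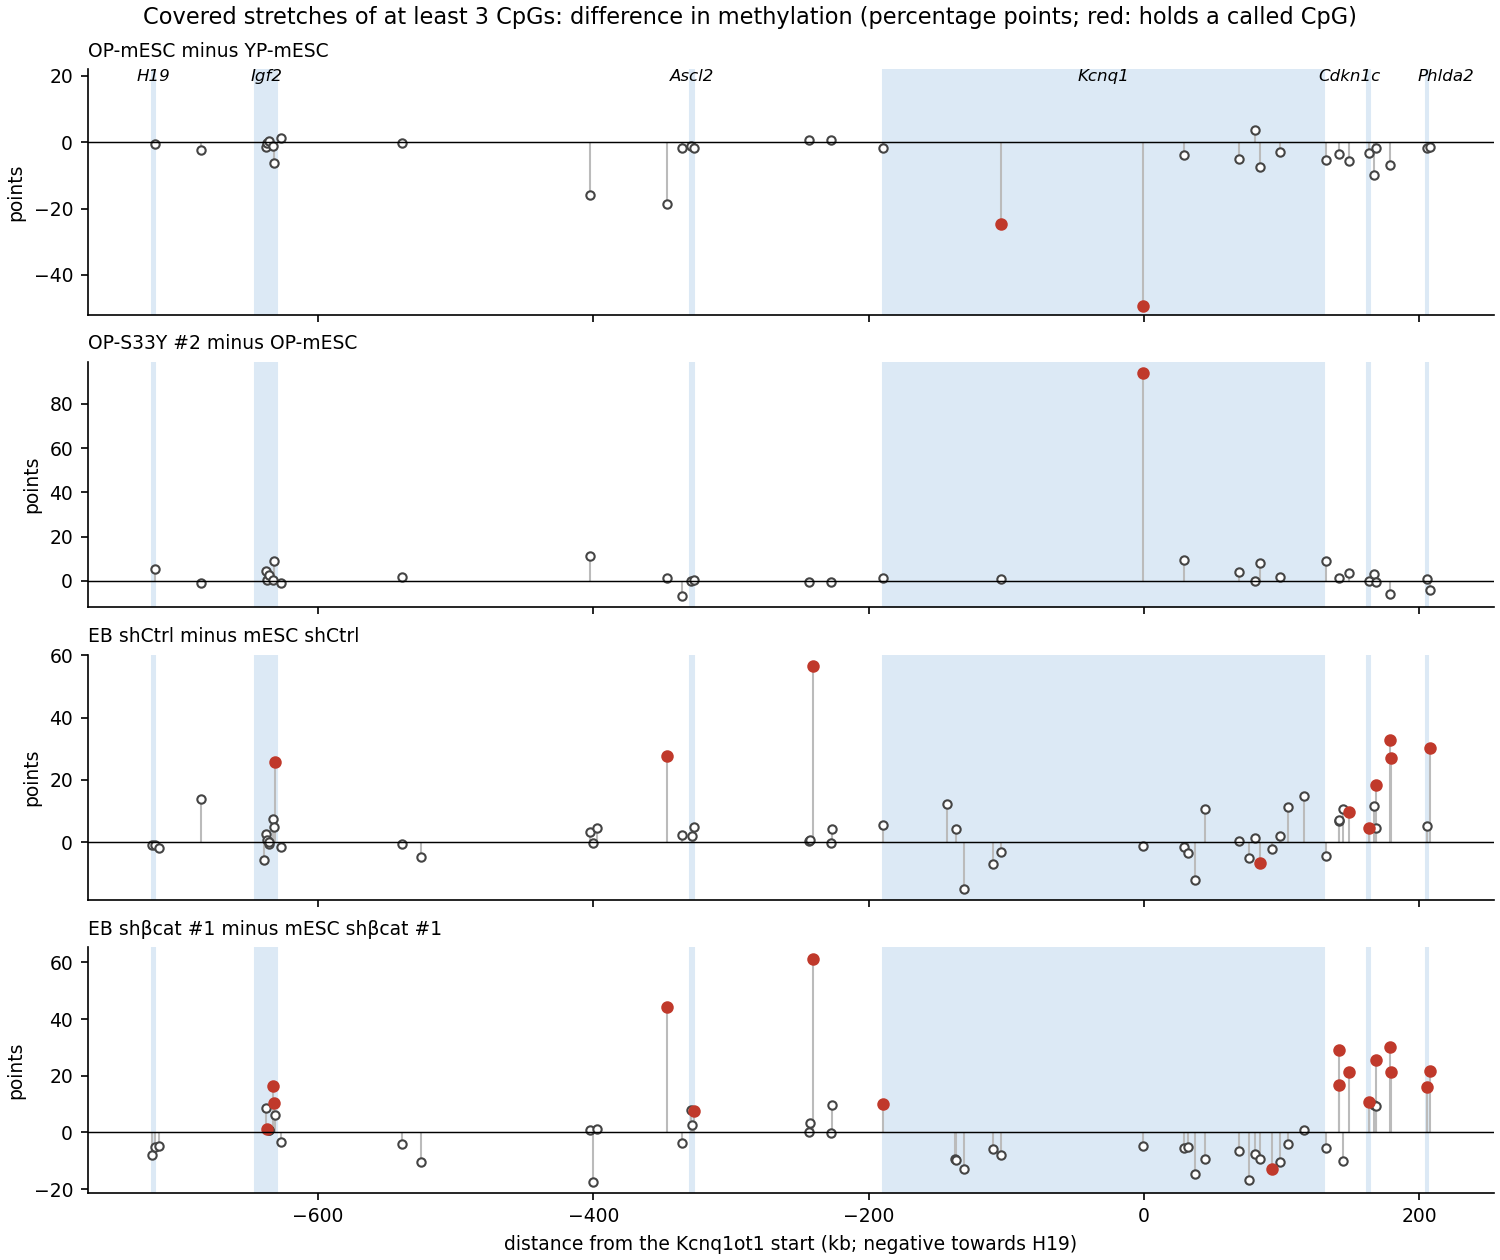
Difference in methylation (percentage points) of each covered stretch of at least 3 CpGs against its distance (kb) from the Kcnq1ot1 start in 4 comparisons; shaded bands are gene bodies and red points are stretches with a called CpG. In OP-S33Y #2 against OP-mESCs the ICR stretch, at 93.9 points, is the only red point, and in both EB comparisons red points are spread from Igf2 to Phlda2, all but 1 in each of them above 0.

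Outside the regions of the 7 genes, stretches between Kcnq1 and Cdkn1c held called CpGs in EBs (described after their values were seen). Part of an intergenic stretch 3′ of Cdkn1c, chr7:150623717-150623903, plus strand, has the 8 CpGs called in shβcat #1 in capitals.
Stretch 3′ of Cdkn1c: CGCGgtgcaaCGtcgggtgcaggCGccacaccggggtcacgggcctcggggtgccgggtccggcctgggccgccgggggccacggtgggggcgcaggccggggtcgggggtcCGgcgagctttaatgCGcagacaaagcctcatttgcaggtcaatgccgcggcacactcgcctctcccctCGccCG
Over 31 shared CpGs the stretch that holds it was at 1.45% and 1.18% in mESC shβcat #1 and at 20.5% and 15.4% in EB shβcat #1 (16.7 points). In shCtrl none of its CpGs was called, with 1.94% and 1.39% in mESCs and 9.58% and 7.14% in EBs. A stretch nearer to Cdkn1c (chr7:150631025-150632269) held 17 called CpGs in shβcat #1, with 22.7% and 19.1% in mESCs and 42.0% and 42.2% in EBs, and 3 in shCtrl, with 20.3% and 19.1% against 28.1% and 30.3%. The differences were 21.2 and 9.51 points. In the same stretch 17 CpGs were at 11.5% and 9.24% in YP-mESCs and at 4.63% and 4.804% in OP-mESCs (-5.64 points). The stretch itself was not tested. The adjusted p of 0.013 is that of a 1 kb tile overlapping it, where 16% of all tiles were called lower.

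Of the 8 other genes that lie in the window, 6 promoters and 7 bodies were measured in these comparisons. In shCtrl 2 promoters (Slc22a18, Trpm5) and 3 bodies (Cd81, Slc22a18, Tspan32) were called higher and 0 lower. Of all promoters 23.3% were called higher there, and of all bodies 24.2%. In shβcat #1 2 promoters (Igf2as, Slc22a18) and 3 bodies (Cd81, Igf2as, Slc22a18) were called higher (28.8% of all promoters and 25.1% of all bodies). The promoter and the body of Th were called lower (5.17% of all promoters and 8.38% of all bodies). Slc22a18, a transporter gene beside Phlda2, had the largest rise among their promoters, from 26.8% to 57.1% in shCtrl (30.2 points, adjusted p = 7.7e-06).

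The shCtrl mESCs, which carry the pLKO vector, and YP-mESCs were compared as a background for the shRNA lines. Whether they also differ in selection, passage or library preparation is not stated in the sources used here. Of 464 CpGs of the domain 2 were called lower (0.36% of all CpGs) and 3 higher (2.59% of all CpGs). The Kcnq1ot1 ICR, over 6 CpGs, was at 48.7% and 42.4% in shCtrl and at 48.9% and 58.4% in YP-mESCs (-8.11 points, adjusted p = 0.36). The called CpGs in Kcnq1 (150526550, lower) and in Cdkn1c (150646241, higher) lay in stretches that differed by -4.94 and -0.25 points. The Kcnq1 body was 2.79 points higher in shCtrl (adjusted p = 0.030; 26.3% of bodies called higher), and it did not pass without mESC shCtrl replicate 1 (adjusted p = 0.14), mESC shCtrl replicate 2 (0.072) or YP-mESC replicate 1 (0.26).

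The sequences of both ICRs were searched for TGCCGC, the ZFP57 hexanucleotide, and for GGNGGCAG, the end of the CTCF core motif, on both strands. The Kcnq1ot1 ICR (2075 bases, 105 CpGs, 53.6% GC) held TGCCGC 3 times, which 0.353% of windows of this length on chromosome 7 reach, while 12.1% hold it at least once. It held GGNGGCAG 0 times (39.9% of windows hold it). The H19 ICR (7258 bases, 105 CpGs, 48.8% GC) held TGCCGC 6 times (0.195% of windows reach this, 33.7% hold it) and GGNGGCAG 8 times (1.51% of windows reach this, 76.2% hold it). The measured stretches of both ICRs printed above held neither motif, and the 187 bases 3′ of Cdkn1c held TGCCGC 2 times (0.0356% of windows). These 187 bases have 24 CpGs and 74.9% GC. In none of these shares were the windows matched for GC or CpG content, and TGCCGC itself holds a CpG. Among 32851 RefSeq promoters of 300 bases, 11.6% held TGCCGC and 12.6% GGNGGCAG; a match is a description of the letters and was not tested for binding.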

How the data were processed

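RRBS libraries (NuGEN Ovation kit) of 16 samples were analysed. The authors trimmed reads (CASAVA 1.8.2, Trim Galore 0.2.8), aligned them to mm9 with Bismark 0.7.9 and deposited, per cytosine with at least 10 reads, the read count and the percent of methylated and unmethylated reads; the treatment of duplicate reads is not given in the sources used here, and read numbers cover counting error only. Methylated reads were recovered from the deposited count and percent values and both strands of a CpG summed. Regions of the whole genome (ICRs as listed by the study, promoters and bodies of GENCODE vM1, 1 kb tiles) were tested over CpGs with at least 10 reads in every library compared, with at least 2 CpGs, by a binomial quasi-likelihood F test with overdispersion moderated by limma 3.58.1 (R 4.3.3; Python 3.11.15) and Benjamini-Hochberg adjustment over all regions of a kind. Levels and differences are means over CpGs. Single CpGs were tested by a chi-square test with 1 overdispersion per comparison, adjusted over all CpGs. Scripts were tested on simulated data. The Kcnq1ot1 start was placed by matching its RefSeq promoter to mm9, and its body was not analysed here. Beside the 7 genes, the 3 stretches of their regions with the largest difference among those with a called CpG were named for each comparison; others were chosen after their values were seen. The members and lists were chosen with earlier results of these data known. Alternatives in depth, coverage, blocking, scale and test, and leaving out each library, were tried.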

Additional observations from a re-analysis of the deposited data

How the results depend on the processing

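No called difference changed sign under any alternative run (1553 values for 138 differences of ICRs, promoters and bodies); 87 values of differences that were not called did, the largest being that of the H19 ICR. Taking all covered CpGs of each library in place of shared ones moved the Kcnq1ot1 ICR difference between OP-mESCs and YP-mESCs to -46.3 points, and those of the H19 ICR, then over different CpGs, to -11.9 points (shβcat #1 minus shCtrl in mESCs), 7.09 points (EB minus mESC, shCtrl) and 16.5 points (EB minus mESC, shβcat #1). Leaving out 1 library gave -7.21 to -2.08 points for EB minus mESC in shβcat #1 at the Kcnq1ot1 ICR, called at the former. The other ICR differences kept their call under each alternative that gave a value, which at least 20 reads per CpG did for 10 of 14 and at least 5 CpGs for 6 of 14.
With no minimum difference the called CpGs of the domain became 16 in OP-mESCs against YP-mESCs, 2 in OP-S33Y #1 against YP-mESCs, 60 and 144 in EBs against mESCs (shCtrl and shβcat #1) and 17 in mESC shCtrl against YP-mESCs. With at least 20 reads per CpG, which leaves fewer CpGs to test, they became 4 in OP-mESCs and 4 in OP-S33Y #2 against YP-mESCs, 0 after silencing in mESCs, 19 and 39 in EBs and 2 in mESC shCtrl against YP-mESCs. A coverage cap also left 0 after silencing in mESCs. Leaving out 1 library gave 4 to 7 (OP-mESCs against YP-mESCs), 3 to 12 (OP-S33Y #2 against YP-mESCs), 5 to 7 and 6 to 14 (OP-S33Y #1 and #2 against OP-mESCs), 0 to 1 (silencing in mESCs and in EBs) and 20 to 31 and 48 to 75 (EBs, shCtrl and shβcat #1). The causes were not tested.
Deviations of same-numbered libraries had correlations of -0.0352 to 0.0525 over the genome and of -0.281 to 0.219 over the CpGs of the domain. The main test therefore used no pairing. The highest genome correlation was that of silencing in EBs, where the block lowered the shared overdispersion from 3.172 to 1.716. For EB shCtrl against mESC shCtrl the block raised it from 2.611 to 3.754. Whether same-numbered EB libraries were handled together was not tested, and the calls for silencing in EBs depend on this choice. With the replicate number as a block, 11 promoters and bodies were gained, 8 of them for silencing in EBs (Cdkn1c promoter, adjusted p = 1.8e-09), and 5 of 26 were lost: the Cdkn1c promoter and body in OP-S33Y #1 against YP-mESCs (0.16 and 0.14) and, in EB shCtrl, the Kcnq1 promoter (0.057) and the Cdkn1c promoter and body (0.056 and 0.052); the 1 called CpG of silencing in mESCs became 0. With 1 shared overdispersion 15 were gained and the H19 promoter in EB shβcat #1 was lost (adjusted p = 0.0504). Few reads limit the H19 ICR most, and OP-mESC replicate 2 limits what can be compared with OP-mESCs.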

Other observations

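One CpG of the window stood apart from its surroundings and belongs to none of the 7 genes. At 150665867, in an intron of Slc22a18, YP-mESCs were at 27.7% and 0%, OP-mESCs at 0% and 19.3%, OP-S33Y #1 at 16.1% and 43.8% and OP-S33Y #2 at 18.6% and 54.3%, whereas mESC shCtrl was at 96% and 100%, mESC shβcat #1 at 97.0% and 93.3% and the EB libraries at 73.9% to 100%. It was the largest difference of a called CpG between mESC shCtrl and YP-mESCs in the domain, 84.2 points. Replicates of the unmodified and S33Y lines lay far apart there, those of the shRNA lines as mESCs did not.
Among stretches outside the regions of the 7 genes, that in an intron of Cd81 had the largest rise in EBs, from 20.5% and 14.9% to 72.8% and 75.8% in shCtrl and from 22.7% and 20.6% to 85.4% and 80.6% in shβcat #1. An intergenic stretch between Th and Ascl2 rose from 8.34% and 13.6% to 34.5% and 42.9% in shCtrl and from 6.20% and 11.7% to 55.8% and 50.8% in shβcat #1. Both were chosen after their values were seen.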
